A study of Mus musculus with 9 samples.

Results

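Transient genes were studied in differentiating 3T3-L1 cells, meaning genes whose expression at day 4 stood apart from both day 0 and day 8. They were taken from the contrast of the 3 day 4 samples with the average of the day 0 and day 8 samples, in a single model with a coefficient per day. A gene was kept when this contrast passed an adjusted p of 0.05 and a 2-fold difference. In addition, all 3 day 4 values, in CPM, had to lie above, or below, the values of all 6 other samples. CPM here are counts scaled to the library size adjusted by TMM factors, a normalization between samples. Of 13154 tested genes, 695 met the rule. There were 340 peak genes, highest at day 4 (2.58% of tested genes), and 355 trough genes, lowest at day 4 (2.70%). Because these values chose the genes, the day 4 differences are given below as a description, with their standard errors (SE) and no test. The comparison of day 8 with day 0, which did not choose the genes, is tested.

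3T3-L1 is a mouse fibroblast-like preadipocyte line that turns into lipid-storing adipocytes on hormonal induction. Day 0 cells were untreated preadipocytes. Day 4 cells had received dexamethasone, IBMX and insulin for 2 days and then insulin alone, and day 8 cells stayed in the insulin medium until collection. Each day was represented by 3 RNA samples, described as mixtures of pooled cells, and no source used here states that they came from separate cultures, so p-values measure the spread between these samples. Between 18216114 and 20452144 expected counts were available per sample. By library size alone, 3 counts, taken as the detection floor, thus corresponded to 0.147 to 0.165 CPM. This floor covers counting error only. Levels are given as FPKM, the authors' expression value per transcript length and depth, and differences as log2 values from the counts.

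Dexamethasone is a synthetic ligand of the glucocorticoid receptor, a transcription factor that switches on its target genes while the hormone is present and shuts down many inflammatory genes. IBMX blocks the breakdown of cyclic AMP, and together with insulin both agents start the cascade in which the early factors C/EBPβ and C/EBPδ induce PPARγ and C/EBPα. PPARγ and C/EBPα then hold the adipocyte state without the inducers.

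Title, source and cell line in the labels name 3T3-L1, but their extraction protocol speaks of DRG that were removed and frozen and names library kits of more than one maker, a conflict that was not settled here. The labels call all 9 samples adipocytes, while the adipocyte marker list was low at day 0. The summed FPKM of its 15 genes was 176.7, 171.6 and 173.3 at day 0, 6864, 8195 and 9722 at day 4 and 9989, 10880 and 10800 at day 8. The fatty acid binding protein gene Fabp4 alone rose from at most 11.26 FPKM at day 0 to at least 3314 at day 4. None of these 15 markers was a transient gene, although all 15 had a positive contrast call. Markers of other cells were low. The 10 listed macrophage markers of 13 summed to 8.88, 9.32 and 10.67 FPKM at day 0, 5.95, 5.43 and 6.54 at day 4 and 6.44, 6.39 and 5.49 at day 8. The monocyte receptor gene Cd14 was the most abundant of them, and the complement genes C1qa, C1qb and C1qc were not listed. Endothelial markers summed to at most 1.98 FPKM in any sample, led by Egfl7, with Tie1 and Cldn5 not listed. Skeletal muscle markers summed to at most 11.86 FPKM, led by Des, with Myod1 not listed. Fibroblast and preadipocyte markers, led by the vimentin gene Vim, summed to 5921 to 6445 FPKM at day 4, against 7968 to 8334 at day 0 and 7852 to 8132 at day 8. In such bulk samples, fewer cells of a type and less RNA per cell cannot be told apart.

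The contrast alone called 606 genes higher (4.61%) and 524 lower (3.98%) at day 4. All day 4 values lay above all others in 1739 genes (13.2%) and below them in 1578 (12.0%). Of the genes called by the contrast, 266 higher and 169 lower ones lacked the separation. Of these, 246 and 130 were also called the same way at day 8 against day 0, which is nearly fixed by how they were chosen, since their day 4 values overlap those of one end. Near the 2-fold limit, the peak genes Rdh18-ps and Slc2a4rg-ps had contrasts of 1.002 and 1.004, and the separated genes Malat1 and Prdx6 missed it at 0.999 and 0.996. Among trough genes, the glucose transporter gene Slc2a1 (-1.001) and Adnp (-1.005) were just inside, and Tmem158 (-0.998) and Nkain1 (-0.996) just outside. Some genes of the lists named below were so near the limit that leaving out a single sample took their contrast under it. They included Col6a3, Foxo1, Fgfr2, Tagln, Fzd1, Dkk3, H2-T24, Anln, Dusp1 and Slc2a1. Rdh18-ps and Adnp are uncertain, since 63.5 and 80.5% of their transcript sequence, cut into 50-base stretches, is shared with other genes.

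**Figure D1:**
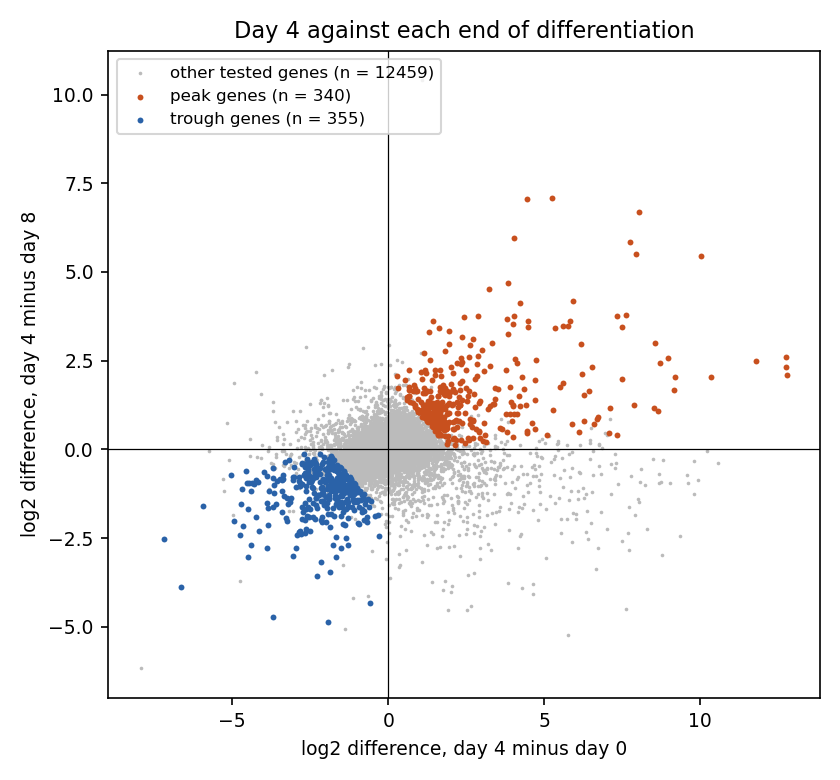
Each point is 1 of the 13154 tested genes, with its log2 difference of day 4 from day 0 on the x axis and from day 8 on the y axis. The 340 peak genes (orange) lie in the upper right and the 355 trough genes (blue) in the lower left, while other genes are grey. The axes share the day 4 samples, so the shape of the cloud is not independent evidence.

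The peak genes had a median contrast of 1.65 on the log2 scale and the trough genes of -1.52, against 0.02 over all tested genes. Peak genes took 1.28, 1.23 and 1.31% of all counts at day 0, 4.95, 4.92 and 4.89% at day 4 and 2.43, 2.54 and 2.56% at day 8. Trough genes took 3.60, 3.33 and 3.50% at day 0, 0.887, 0.814 and 0.754% at day 4 and 1.76, 1.76 and 1.80% at day 8. At day 0, 20 to 24 of the 340 peak genes had no count in a given sample. At day 4, 3 to 8 of the 355 trough genes had none. Where the mean log2 CPM reached 1, the median coefficient of variation between day 4 replicates was 6.84% in peak genes, 12.4% in trough genes and 6.12% in all tested genes.

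A stricter reading asks for more than a 2-fold difference from each end separately. In all, 198 genes were more than 2-fold higher at day 4 than at both ends (1.51%) and 182 more than 2-fold lower (1.38%), and 196 and 175 of these were transient genes. A further 119 peak genes and 151 trough genes differed by over 2-fold from day 0 alone, and 25 and 29 from day 8 alone. No transient gene lacked both.

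Expression at day 8 was tested against day 0 with edgeR's quasi-likelihood test. Over all tested genes, 1356 were higher at day 8 (10.3%) and 1013 lower (7.70%). Of the peak genes, 136 (40.0%) were higher at day 8 than at day 0, with a median log2 difference of 2.30. These had not returned to the preadipocyte level, while their fall from day 4 is set by the rule. Another 188 (55.3%) passed in neither direction and 16 (4.71%) were lower than at the start. Trough genes showed the opposite lean, with 150 (42.3%) lower at day 8 than at day 0, 186 (52.4%) called in neither direction and 19 (5.35%) higher. The rule does not use this comparison but uses the same day 0 and day 8 values. It can favour genes near 0 at one end, and its part in these shares was not tested.

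**Figure D2:**
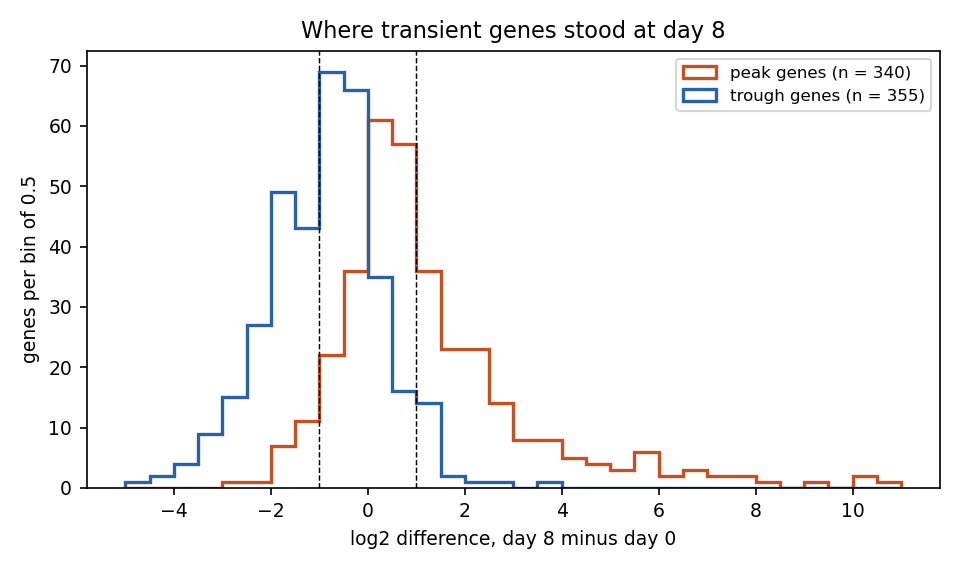
Histogram of the log2 difference between day 8 and day 0 (x axis, bins of 0.5) in peak genes (orange) and trough genes (blue), with the number of genes on the y axis. Dashed lines mark 2-fold differences; 188 of 340 peak genes and 186 of 355 trough genes were called in neither direction.

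By count, known targets of the glucocorticoid receptor formed the largest group of peak genes among the 40 gene lists. Of 23 tested genes on the glucocorticoid response list, 17 were peak genes and 0 were trough genes, against backgrounds of 2.58% and 2.70%. Their list had a median contrast of 2.32, against 0.02 for all tested genes. All lists were chosen with earlier results of these data known, so their counts are not independent evidence, and the values of Fam107a and Cpm had themselves been seen. The same backgrounds apply to every list count below. The receptor gene Nr3c1 itself did not peak: its contrast was -0.74 ± 0.0459, and its level was 25.4, 26.61 and 27.2 at day 0, 16.67, 15.23 and 17.29 at day 4 and 28.83, 29.65 and 27.61 at day 8.

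Fkbp5 encodes a co-chaperone that dampens the receptor in a feedback loop, and its FPKM was 11.35, 14.05 and 12.69 at day 0, 199.3, 201.2 and 197.3 at day 4 and 14.4, 13.75 and 14.7 at day 8. All day 4 values were more than 10-fold above every other sample, and day 8 lay close to day 0 (log2 difference 0.28 ± 0.065, edgeR adjusted p = 0.001). Tsc22d3 encodes the anti-inflammatory protein GILZ and had 29.54, 32.41 and 30.34 at day 0, 286.2, 285.7 and 262.2 at day 4 and 54.1, 52.38 and 50.5 at day 8 FPKM. The transcription factor gene Zbtb16 stood at 0.32, 0.15 and 0.14 at day 0, 19.03, 17.28 and 17.68 at day 4 and 3.58, 3.37 and 3.55 at day 8 FPKM. These genes kept part of the rise at day 8, most of all Zbtb16, which remained above day 0 by 4.21 ± 0.163 on the log2 scale (edgeR adjusted p = 1.3e-12). Period gene Per1, which carries a glucocorticoid response as well as a clock function, had 8.45, 8.23 and 8.56 at day 0, 27.96, 28.41 and 26.51 at day 4 and 11.6, 11.25 and 12.18 at day 8 FPKM.

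Cebpd, which encodes the early adipogenic factor C/EBPδ, had 21.4, 22.01 and 25.55 at day 0, 98.36, 102 and 101.3 at day 4 and 18.58, 17.53 and 17.73 at day 8 FPKM. Its day 8 values were below day 0 (-0.25 ± 0.0638, edgeR adjusted p = 0.0026), a difference of less than 2-fold. The related Cebpb had 81.27, 63.88 and 72.69 at day 0, 78.37, 82.8 and 86.66 at day 4 and 102, 105.1 and 108.5 at day 8 FPKM, was not a transient gene and had a contrast of -0.072 ± 0.0621. The difference between the courses of Cebpd and Cebpb was not tested.

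The remaining targets covered metal binding, metabolism and signal damping. The metallothionein gene Mt1 had 330.1, 353.5 and 377 at day 0, 1287, 1463 and 1371 at day 4 and 370.9, 350.6 and 389.6 at day 8 FPKM. Its neighbour Mt2 had 49.49, 51.99 and 58.26 at day 0, 202.9, 260.8 and 291.6 at day 4 and 69.16, 68.32 and 92.01 at day 8 FPKM. In both, no day 4 value overlapped the rest. Glul, the gene for glutamine synthetase, rose from 5.98, 7.1 and 6.7 FPKM at day 0 to 262.2, 292.4 and 298.8 at day 4 and stood at 77.65, 83.73 and 83.19 at day 8. Its day 8 level remained above day 0 by 3.74 ± 0.0736 on the log2 scale (edgeR adjusted p = 6.4e-16). Errfi1, an inhibitor of the EGF receptor, had a contrast of 2.46 ± 0.0435, and Ddit4, an inhibitor of mTORC1, one of 1.68 ± 0.0536. Pdk4, the kinase that shuts off pyruvate dehydrogenase, had a contrast of 1.68 ± 0.067 and was lower at day 8 than at day 0 (-0.54 ± 0.0901, edgeR adjusted p = 5.3e-05). Nfkbia, which encodes the NF-κB inhibitor IκBα, was 1.00 ± 0.0594 above day 8 on the log2 scale, a difference that barely exceeded 2-fold. The phosphatase gene Dusp1 had the smallest contrast of the 17, 1.05 ± 0.0773, with 22.7, 25.38 and 25.57 at day 0, 46.01, 38.83 and 54.3 at day 4 and 21.05, 19.26 and 21.65 at day 8 FPKM, and dropped under the 2-fold limit (0.929) without day 4 replicate 3.

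Fam107a and Cpm had the sharpest peaks of the list by the smaller of their differences from day 0 and day 8. Fam107a, a stress- and glucocorticoid-responsive gene that encodes an actin-associated protein, had 0.06, 0.05 and 0.08 at day 0, 65.49, 64.48 and 67.68 at day 4 and 1.18, 1.47 and 1.69 at day 8 FPKM. Cpm, the gene for the membrane enzyme carboxypeptidase M, had 0.54, 0.88 and 0.71 at day 0, 12.77, 13.22 and 11.42 at day 4 and 0.74, 0.68 and 0.65 at day 8 FPKM. Cpm showed no call between the ends (0.081 ± 0.161, edgeR adjusted p = 0.67), whereas Fam107a stayed above day 0 (4.56 ± 0.246, edgeR adjusted p = 8.3e-11) at a low level. Lcn2 and Serpina3n, genes of secreted acute phase proteins, stood less than 2-fold above day 8 at day 4, with 1.59, 1.12 and 1.47 at day 0, 102.3, 103.1 and 107.4 at day 4 and 51.84, 55.69 and 66.53 at day 8 FPKM for Lcn2.

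Not every gene of the list came down. Angptl4, which encodes an inhibitor of lipoprotein lipase, had 12.24, 11.47 and 11.7 at day 0, 97.18, 102.6 and 101.8 at day 4 and 137.4, 136.7 and 143.8 at day 8 FPKM. Hsd11b1, whose enzyme regenerates active glucocorticoid, had 0.73, 0.53 and 0.36 at day 0, 34.75, 43.12 and 51.79 at day 4 and 123.3, 139.7 and 152.6 at day 8 FPKM. Both kept rising to day 8 and were not transient genes. Klf15 also rose throughout, to 14.44, 16.54 and 16.16 FPKM at day 8. Klf9 and Sgk1 had contrasts of 0.64 ± 0.0551 and 0.59 ± 0.0568, under 2-fold. Cdkn1c was too low to be tested.

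**Figure D3:**
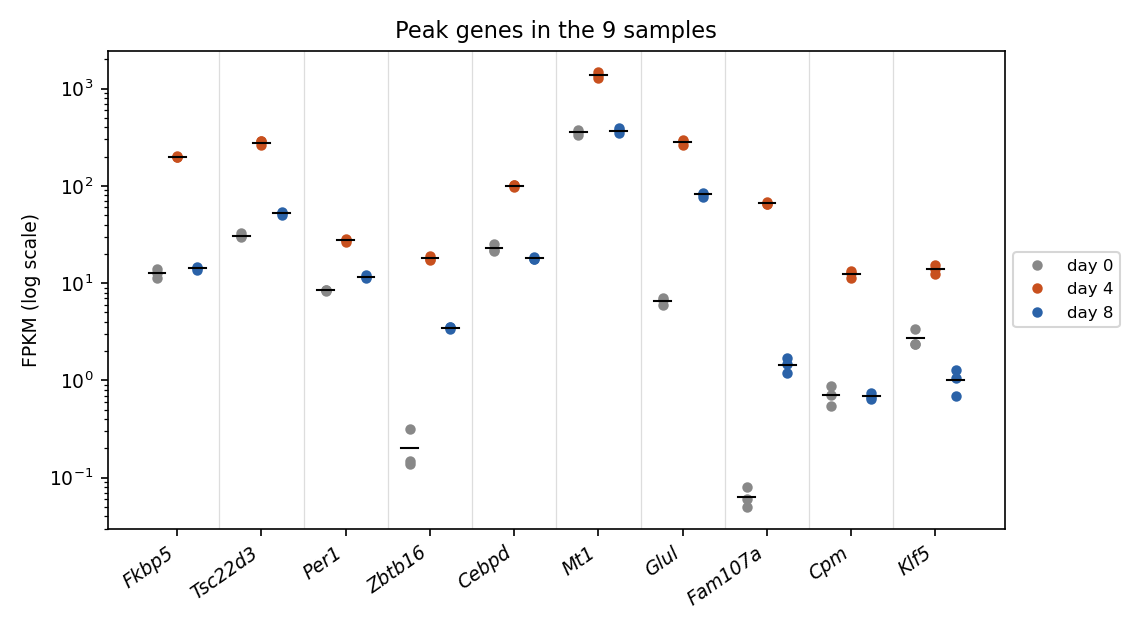
FPKM on a log axis of 10 peak genes in the 9 samples, with day 0 in grey, day 4 in orange and day 8 in blue; points are samples and black bars the means of 3. In each gene all 3 day 4 points stand above the 6 others, for example in Per1 (26.51 to 28.41 FPKM at day 4) and Fam107a (64.48 to 67.68).

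Of 14 tested genes on the cyclic AMP response list, 3 were peak genes (background 2.58%) and 0 trough genes, and the median contrast was 0.15. The peak genes were Fos and Fosb, immediate early transcription factors, and Rgs2, a regulator of G protein signalling. Fos had 29.79, 34.28 and 53.4 at day 0, 105.8, 67.35 and 185.5 at day 4 and 35.08, 29.81 and 38.36 at day 8 FPKM. For Fosb the values were 4.5, 5.74 and 10.7 at day 0, 22.34, 10.86 and 43.64 at day 4 and 2.5, 1.95 and 2.93 at day 8 FPKM. The replicates of day 4 spread widely in both genes, with replicate 2 lowest and replicate 3 highest, and in Fosb the lowest day 4 value lay just above the highest day 0 value. Nr4a1 (-0.64 ± 0.0867), Crem (0.26 ± 0.124) and Ppargc1a (-0.78 ± 0.062), other textbook targets, were not transient genes.

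Immediate early genes did not move as a block. Of 27 tested, 4 were peak genes (Fos, Fosb and the phosphatase genes Dusp1 and Dusp14) and 4 trough genes (Atf3, Ier3 and the phosphatase genes Dusp5 and Dusp8). The stress factor gene Atf3 had 6.16, 5.17 and 5.77 at day 0, 1.23, 0.84 and 0.57 at day 4 and 3.89, 3.71 and 4.5 at day 8 FPKM, with no overlap between day 4 and the ends. Its day 8 level was below day 0 by less than 2-fold (-0.39 ± 0.146, edgeR adjusted p = 0.026).

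Among 35 tested adipogenic transcription factors, 3 peaked (Cebpd, Klf5 and Foxo1) and 3 had a trough (Gata2, Gata3 and Ddit3), and the median contrast was 0.17. Foxo1 lost its call under other normalizations, in DESeq2 and in limma. Klf5, which cooperates with C/EBP factors to induce PPARγ, had 2.39, 3.39 and 2.36 at day 0, 15.3, 13.85 and 12.52 at day 4 and 1.27, 0.69 and 1.05 at day 8 FPKM and fell below its starting level by day 8 (-1.31 ± 0.207, edgeR adjusted p = 3.2e-05). Gata2 and Gata3 encode factors that restrain adipogenesis. Gata2 stood at 9.65, 9.51 and 10.95 at day 0, 1.76, 1.98 and 1.64 at day 4 and 3.94, 3.64 and 3.45 at day 8 FPKM, so its fall by day 4 was partly undone at day 8. Ddit3 encodes CHOP, an inhibitor of C/EBP proteins, and had 123.7, 107.9 and 129.8 at day 0, 56.67, 51.15 and 51.62 at day 4 and 118.9, 116.6 and 126.6 at day 8 FPKM. Its day 8 values overlapped those of day 0 (0.11 ± 0.0665, edgeR adjusted p = 0.15). The master regulators did not peak, and Pparg had 11.45, 11.4 and 11.7 at day 0, 87.63, 91.86 and 100.2 at day 4 and 119.3, 136.4 and 133.4 at day 8 FPKM.

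By the size of the smaller of their differences from day 0 and day 8, the 15 leading peak genes included Fam107a, Retnla, Cpm, Orm3, Fkbp5, AI607873, an uncharacterized gene (NCBI gene ID 74931), Aldh1a1, Map7d2, Adcyap1r1, E030003E18Rik, Sult1a1, Card14 and Il1rn. The uncharacterized gene had 0, 0.04 and 0 at day 0, 4.56, 3.13 and 3.41 at day 4 and 0, 0.05 and 0.04 at day 8 FPKM, with values near 0 on both other days. Sult1a1, which encodes a phenol sulfotransferase, had 0.17, 0.19 and 0.24 at day 0, 68.05, 73.22 and 80.6 at day 4 and 8.53, 9.51 and 8.81 at day 8 FPKM. Both had very low values at day 0, at or below 0.24 FPKM, but Sult1a1 kept several FPKM at day 8.

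Aldh1a1, the retinaldehyde dehydrogenase gene that makes retinoic acid, had 0.5, 0.39 and 0.26 at day 0, 19.69, 16.73 and 17.86 at day 4 and 1.46, 1.5 and 1.75 at day 8 FPKM. E030003E18Rik lies within the span of Aldh1a1 on GRCm38.p6 and followed it at 7.07, 6.53 and 5.57 FPKM at day 4. Reads of the pair could not be told apart where their exons overlap. Orm3, a gene of the acute phase protein orosomucoid, had 1.92, 1.91 and 2.72 at day 0, 45.91, 46.59 and 48.9 at day 4 and 4.59, 2.85 and 3.82 at day 8 FPKM. Il1rn, which encodes the interleukin-1 receptor antagonist, had 1.05, 1.49 and 0.92 at day 0, 6.88, 7.27 and 7.41 at day 4 and 0.89, 0.8 and 0.74 at day 8 FPKM, and Adcyap1r1, the gene for a receptor of the peptide PACAP, stayed at or below 1.95 FPKM even at day 4. Among peak genes on the fatty acid list, the lipogenic regulator gene Thrsp had 0.09, 0.2 and 0.09 at day 0, 136.6, 162.1 and 175.6 at day 4 and 37.62, 38.99 and 35.95 at day 8 FPKM. That list held 1 peak gene among 22 tested.

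The resistin-like and eosinophil-associated ribonuclease list, chosen with earlier results of these data known, had 6 peak genes of 9 tested (background 2.58%), namely Retnla and the ribonuclease genes Ear1, Ear2, Ear3, Ear6 and Ear12. Retnla encodes a secreted resistin-like protein known from alternatively activated macrophages, and had 0, 0.1 and 0.09 at day 0, 8.94, 13.82 and 17.44 at day 4 and 1.56, 0.87 and 0.35 at day 8 FPKM. Ear1 had 0, 0 and 0.07 at day 0, 104.8, 106.6 and 123.2 at day 4 and 14.91, 21.45 and 21.4 at day 8 FPKM. Ear2 had 0, 0 and 0 at day 0, 53.14, 63.94 and 67.11 at day 4 and 7.41, 10.27 and 11.46 at day 8 FPKM. No Ear2 read was counted at day 0, and day 4 was at least 278-fold higher when day 0 was set to the floor of 3 counts per sample. The separate values of Ear1 and Ear2 are uncertain, as Ear1 shares 57.4% and Ear2 41.5% of their 50-base stretches with relatives, while Ear3 and Ear12 could not be checked in this way. Ear6 shares 0.954% of its stretches and had 0, 0 and 0 at day 0, 4.18, 5.21 and 5.91 at day 4 and 0.85, 1.75 and 1 at day 8 FPKM. By contrast, the adipokine gene Retn was not a transient gene and had 0.17, 0.28 and 0.17 at day 0, 240.5, 311.8 and 377.3 at day 4 and 384.8, 394.7 and 395 at day 8 FPKM. Of 13 macrophage markers, 5 were high enough to be tested, 0 were peak genes and 1, the lysozyme gene Lyz2, was a trough gene. Csf1r stayed at or below 0.44 FPKM at day 4, Ptprc, which was not tested, at or below 0.03 and Cd68 at or below 1.58.

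By count, the largest group of trough genes among the 40 gene lists was that of interferon-stimulated genes, which cells switch on against viruses. This was also the longest list. Of 66 tested, 30 were trough genes (background 2.70%), 1 was a peak gene, and the median contrast was -1.44 against 0.02 for all tested genes. At day 8, 62 of the 66 were lower than at day 0 by edgeR's quasi-likelihood test (background 7.70%), among them all 30 trough genes, and 6 were more than 2-fold lower at day 4 than at each end. For the trough genes the call at day 8 is partly fixed by the rule. A contrast beyond 2-fold with a small gap to day 8 puts day 8 below day 0. As a description, most of the trough genes fell by day 4, rose a little and remained below day 0 at day 8.

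The promoters of several of these genes carry the interferon-stimulated response element, the site bound by interferon regulatory factors. It was searched as GAAANNGAAA on both strands of the RefSeq promoter windows of GRCm38.p6, from 250 bases before to 50 bases after the gene start. The letters were found in 13 of the 22 interferon trough genes with a window (59.1%) and in 15 of 26 other tested genes of the list (57.7%), so they did not set the trough genes apart within the list. Among all 32851 windows 3.44% held them, among the 10416 tested genes with a window 3.84%, among peak genes 4.12% and among trough genes 11.1%. Stretches of 5 of these promoters are shown 5′ to 3′ on the strand of the gene, since they belong to genes described next, with matches in capitals (a match that starts with TTTC is the same site on the opposite strand). Where matches overlap, the capitals run through. They are Ifit1 at chr19:34640760-34640838 (plus strand), Ifit3 at chr19:34583348-34583441 (plus), Isg15 at chr4:156200850-156200921 (minus), Igtp at chr11:58199497-58199556 (plus) and Irgm2 at chr11:58214888-58214947 (plus).
Ifit1: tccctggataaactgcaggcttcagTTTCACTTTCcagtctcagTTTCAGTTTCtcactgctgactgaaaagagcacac
Ifit3: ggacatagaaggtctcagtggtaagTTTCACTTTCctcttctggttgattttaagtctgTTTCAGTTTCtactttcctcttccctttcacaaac
Isg15: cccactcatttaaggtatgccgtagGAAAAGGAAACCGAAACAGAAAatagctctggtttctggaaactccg
Igtp: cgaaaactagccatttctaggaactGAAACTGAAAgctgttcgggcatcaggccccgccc
Irgm2: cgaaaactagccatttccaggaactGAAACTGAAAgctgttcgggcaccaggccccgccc
The Ifit1 and Ifit3 stretches hold 2 separate matches each and the Isg15 stretch 3 overlapping ones. Those of the neighbouring genes Igtp and Irgm2 hold 1 each within nearly the same surroundings. The same windows were searched for the glucocorticoid response element and the cell cycle homology region. Among genes with a window, the first was found in 0 of 15 peak genes on the glucocorticoid list and 0 of 267 peak genes. Only 1 of the 10416 tested genes with a window held it, so this search could not set any group apart. The second was found in 10.5% of peak genes and 15.9% of trough genes, against 14.5% of tested genes.

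Ifit1 encodes a protein that binds foreign RNA, and had 97.23, 61 and 67.49 at day 0, 2.71, 2.21 and 3.55 at day 4 and 7.02, 5.79 and 5.16 at day 8 FPKM. Day 4 was more than 2-fold under day 8 (-1.13 ± 0.219 on the log2 scale), and day 8 remained below day 0 by far (-3.54 ± 0.164, edgeR adjusted p = 1.2e-11). Ifit3 had 121.2, 68.01 and 84.87 at day 0, 2.94, 2.87 and 4.15 at day 4 and 10.4, 8.79 and 8.78 at day 8 FPKM, although 51.2% of its 50-base stretches are shared with other genes, foremost Ifit3b, so its own level is uncertain. Isg15, the gene of a ubiquitin-like antiviral modifier, had 177.5, 118.6 and 144.8 at day 0, 7.54, 8.55 and 12.24 at day 4 and 16.91, 14.16 and 15.4 at day 8 FPKM. In every one of these genes day 0 replicate 1 was the highest sample of all, and day 4 lay below day 8 without overlap.

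Of 14 tested guanosine triphosphatase genes of the interferon response, 10 were trough genes (background 2.70%). Igtp and Irgm2 encode immunity-related GTPases that act against intracellular parasites. Igtp had 26.83, 18.35 and 19.23 at day 0, 3.31, 2.55 and 3.56 at day 4 and 4.19, 4.01 and 3.83 at day 8 FPKM. Irgm2 had 27.02, 16.27 and 17.88 at day 0, 2.27, 2.29 and 2.59 at day 4 and 4.06, 3.98 and 3.87 at day 8 FPKM. Ifi47 was more than 2-fold lower at day 4 than at each end, with a contrast of -2.79 ± 0.217. Tgtp1 and Tgtp2 were trough genes too, but more than 80% of the stretches of each are shared, so their separate values are uncertain. Mx1, the gene of an antiviral dynamin-like protein, had 17.23, 10.99 and 10.89 at day 0, 1.29, 0.91 and 1.31 at day 4 and 2.17, 2.02 and 2.02 at day 8 FPKM. Day 4 and day 8 did not overlap in any of these. Among effectors, Oasl2 had 91.66, 61.35 and 70.31 at day 0, 3.02, 2.24 and 3.71 at day 4 and 4.6, 4.32 and 4.31 at day 8 FPKM. Bst2, which encodes the virus-tethering protein tetherin, had 397.2, 284.6 and 355.9 at day 0, 50.3, 49.74 and 53.36 at day 4 and 55.2, 55.4 and 53.63 at day 8 FPKM. For Bst2 the gap between day 4 and day 8 was narrow (-0.14 ± 0.0987), although the values did not overlap.

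Transcription factors of the pathway gave a mixed picture. Irf9, part of the complex that binds the response element, was a trough gene with 45.24, 38.24 and 40.79 at day 0, 7.26, 7.75 and 8.02 at day 4 and 9.96, 9.54 and 9.62 at day 8 FPKM. Irf7 was not, with a contrast of -1.67 ± 0.155. Of 21 tested interferon receptors and sensors outside the list, 1 was a peak gene, the interferon gamma receptor gene Ifngr1 (1.84 ± 0.077 from day 0 and 0.58 ± 0.0718 from day 8), and 0 were trough genes. The exception among the stimulated genes was Ifi204, a DNA sensor gene, which peaked with 33.86, 28.98 and 28.22 at day 0, 65.67, 62.42 and 70.52 at day 4 and 13.22, 14.21 and 13.57 at day 8 FPKM, although 20% of its stretches are shared. Among 21 tested genes of MHC class I and antigen processing, 3 were trough genes, Cd74, H2-T22 and H2-T24, of which H2-T22 shares 34.5% of its stretches.

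**Figure D4:**
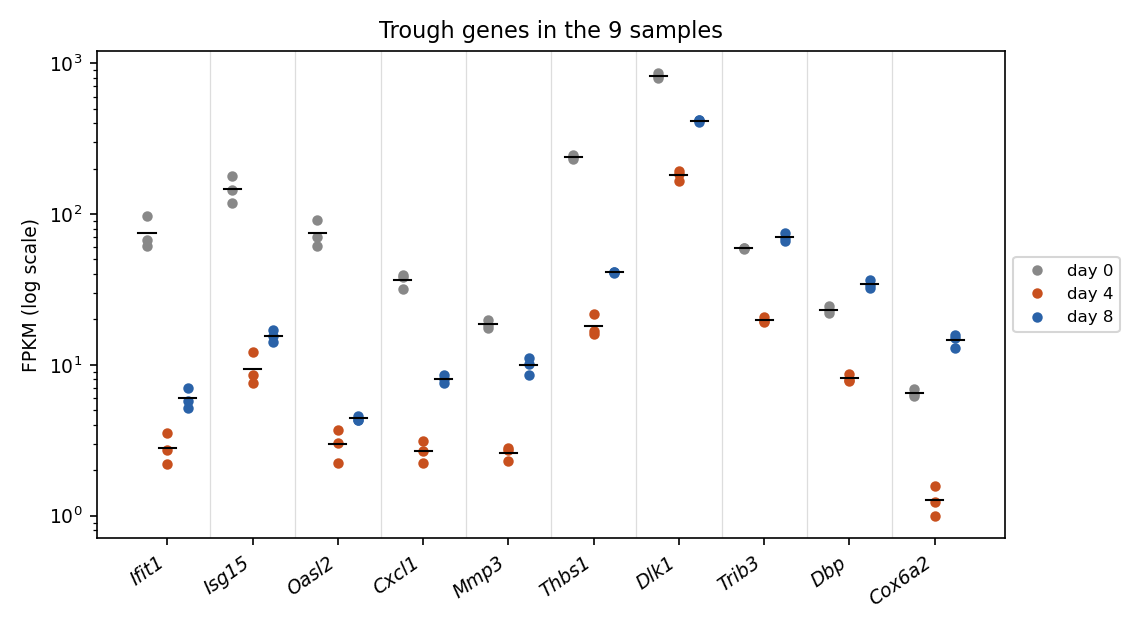
FPKM on a log axis of 10 trough genes in the 9 samples, with day 0 in grey, day 4 in orange and day 8 in blue; points are samples and black bars the means of 3. All 3 day 4 points lie below the 6 others in each gene. Interferon genes such as Ifit1 stayed low at day 8 (5.16 to 7.02 FPKM), whereas Trib3 and Dbp returned to or above their day 0 level.

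Of 31 tested chemokine, cytokine and receptor genes, 9 were trough genes (background 2.70%) and 1 a peak gene. The median contrast was -0.945, and the median difference of day 4 from day 8 was -0.398. Cxcl1 and Cxcl5 encode neutrophil attractants. Cxcl1 had 31.56, 38.44 and 39.58 at day 0, 2.68, 2.23 and 3.12 at day 4 and 7.58, 8.56 and 8.1 at day 8 FPKM. Cxcl5 had 21.03, 24.62 and 25.52 at day 0, 0.81, 0.54 and 0.83 at day 4 and 3.1, 2.56 and 2.93 at day 8 FPKM. The monocyte attractant gene Ccl2 had 50.55, 72.45 and 61.78 at day 0, 4.69, 6.08 and 7.01 at day 4 and 8.18, 7.02 and 6.87 at day 8 FPKM. Its day 4 and day 8 values overlapped in FPKM. They were separated in CPM only after TMM scaling, by a narrow gap (-0.36 ± 0.178 for day 4 minus day 8). Day 0 was the highest day in all of these chemokines. Il33, an alarmin gene of stromal cells, had 0.75, 0.73 and 0.89 at day 0, 0.14, 0.04 and 0.12 at day 4 and 0.55, 0.53 and 0.47 at day 8 FPKM, at which only small counts stand behind each value. The peak gene was the interleukin-6 receptor gene Il6ra, with 2.77, 2.54 and 2.78 at day 0, 8.45, 7.96 and 6.61 at day 4 and 3.09, 3.03 and 3 at day 8 FPKM.

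Of 17 tested prostaglandin genes, 2 were peak genes (background 2.58%) and 2 trough genes (2.70%), and the median contrast was -0.058. The synthase gene Ptgds had 0.69, 0.21 and 0.44 at day 0, 6.33, 6.08 and 5.52 at day 4 and 0.95, 1.46 and 1.28 at day 8 FPKM. Hpgd, whose enzyme inactivates prostaglandins, stayed at or below 0.83 FPKM even at day 4, and its contrast lost its call in limma on log2(FPKM + 1). The receptor gene Ptger4 had 4.09, 5.08 and 3.89 at day 0, 0.76, 0.69 and 0.67 at day 4 and 2.44, 3 and 2.34 at day 8 FPKM and was lowest at day 4, as was the receptor gene Ptgir (-1.81 ± 0.174). Ptgs2, the inducible cyclooxygenase gene, was not a transient gene, since its day 4 and day 8 values overlapped after a fall from 12.53, 18.66 and 16.02 FPKM at day 0. Among 13 tested complement genes, C3 (3.88 ± 0.0942 from day 0 and 1.00 ± 0.0841 from day 8) and Cfp (contrast 1.12 ± 0.127) were peak genes and Serping1 (-2.32 ± 0.289 from day 0 and -0.79 ± 0.35 from day 8) and Masp1 (-2.77 ± 0.12 from day 0 and -0.42 ± 0.144 from day 8) trough genes, Masp1 overlapping the interferon-stimulated gene Rtp4.

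Genes under ATF4, the transcription factor of amino acid shortage and endoplasmic reticulum stress, were tested as a list of 28. Of these, 7 were trough genes (background 2.70%) and 2 peak genes (2.58%), with a median contrast of -0.579, and all day 4 values lay below all others in 19 of them (background 12.0%). Trib3, a pseudokinase gene that restrains Akt, had 58.46, 59.48 and 59.12 at day 0, 19.43, 19.36 and 20.63 at day 4 and 66.59, 69.72 and 75.15 at day 8 FPKM and ended above day 0 by less than 2-fold (0.37 ± 0.0519, edgeR adjusted p = 9.1e-06). Chac1, whose enzyme degrades glutathione, had 37.92, 37.44 and 38.55 at day 0, 13.49, 13.46 and 12.76 at day 4 and 42.24, 41.4 and 46.25 at day 8 FPKM. These genes came back to levels near or above day 0. The mitochondrial folate enzyme gene Aldh1l2 had 53.86, 51.56 and 48.91 at day 0, 17.68, 14.92 and 15.36 at day 4 and 32.36, 34.07 and 34.61 at day 8 FPKM. The stress hormone gene Gdf15 had 2.76, 2.63 and 1.84 at day 0, 1.12, 1.01 and 1.48 at day 4 and 4.61, 4.83 and 5.71 at day 8 FPKM. The gene Atf4 itself was lower at day 4 without reaching 2-fold (-0.67 ± 0.0415), as was its target Asns (-0.58 ± 0.0454), the gene for asparagine synthetase. Both peak genes were transporters, and Slc1a5, a glutamine carrier gene, had 59.19, 59.49 and 58.43 at day 0, 163.8, 181.7 and 183.5 at day 4 and 93.94, 108.8 and 110.4 at day 8 FPKM. Slc7a3 stayed at or below 0.42 FPKM at day 4. Beside this list, 1 of 26 tested endoplasmic reticulum chaperone genes was a trough gene, Ero1l (-0.29 ± 0.127 from day 0 and -2.43 ± 0.131 from day 8).

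Clock genes gave 5 trough genes (background 2.70%) and 1 peak gene (2.58%) among 19 tested. The trough genes were the clock outputs and repressors Dbp, Ciart, Per3, Nr1d1 and Nr1d2, and the peak gene was Per1. Dbp, a PAR-domain transcription factor gene, had 23.11, 21.91 and 24.58 at day 0, 7.76, 8.75 and 7.87 at day 4 and 34, 32.12 and 36.46 at day 8 FPKM. Nr1d1, which encodes the repressor REV-ERBα, had 21.98, 22.18 and 22.96 at day 0, 12.6, 13.78 and 12.81 at day 4 and 33.79, 33.68 and 34.66 at day 8 FPKM. Both were higher at day 8 than at day 0, by 0.67 ± 0.0681 (edgeR adjusted p = 2.1e-07) and 0.72 ± 0.0504 (edgeR adjusted p = 2.3e-09) on the log2 scale. Nr1d2 had 10.28, 9.32 and 9.56 at day 0, 3.3, 3.21 and 3.29 at day 4 and 7.25, 7.34 and 6.55 at day 8 FPKM. The activators had contrasts of 0.038 ± 0.0548 for Arntl and 0.34 ± 0.0526 for Clock. The hour of collection is not given in the sources used here, so day of differentiation and clock phase at collection cannot be told apart. The spans of Dbp and Nr1d1 overlap another listed gene, as do those of several others named here (Cebpd, Ddit3, Ifit1, Timp3, Cox6a2, Sult1a1, Card14 and the uncharacterized gene), and whether counting used strand is not given in the sources used here.

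Of 42 tested matrix glycoprotein and proteoglycan genes, 8 were trough genes (background 2.70%) and 0 peak genes, and the median contrast was -0.172. Thbs1, the gene for thrombospondin-1, had 231.4, 240 and 245.5 at day 0, 21.74, 16.76 and 16.01 at day 4 and 40.93, 40.78 and 41.21 at day 8 FPKM. The fibronectin gene Fn1 had 1259, 1020 and 1157 at day 0, 217.7, 193.6 and 161.6 at day 4 and 289.6, 315.3 and 322.9 at day 8 FPKM. Fibrillin-1, the core of microfibrils, is encoded by Fbn1, which had 60.79, 53.32 and 58.06 at day 0, 15.31, 12.66 and 11.19 at day 4 and 33.46, 36.47 and 37.45 at day 8 FPKM. These genes had the highest values at day 0 and regained part of them by day 8. In Fmod, the gene for the collagen-binding fibromodulin, day 8 was the highest point instead, with 9.31, 9.44 and 10.14 at day 0, 3.13, 3.07 and 2.35 at day 4 and 22.33, 22.28 and 23.26 at day 8 FPKM (1.34 ± 0.0734 for day 8 minus day 0, edgeR adjusted p = 9.9e-11). Mfap4, another microfibril gene, had 3.88, 3.7 and 4.53 at day 0, 2.51, 2.51 and 2.77 at day 4 and 45.13, 51.24 and 54.97 at day 8 FPKM, so its dip at day 4 was small beside the later rise.

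Of 24 tested collagen genes, 4 were peak genes (Col4a1, Col4a2, Col4a3 and Col6a3; background 2.58%) and 2 trough genes (Col8a1 and Col14a1; background 2.70%). The basement membrane collagen gene Col4a1 had 238.8, 224.6 and 233.4 at day 0, 881.1, 849.3 and 818 at day 4 and 457.1, 492.7 and 505.3 at day 8 FPKM. Its partner Col4a2 had 188.7, 172.8 and 181 at day 0, 544.2, 528.9 and 489.7 at day 4 and 310.2, 328.9 and 340.4 at day 8 FPKM. These neighbouring genes overlap at their shared start region, and neither was more than 2-fold above day 8. Col8a1 had 6.8, 6.27 and 5.93 at day 0, 0.64, 0.36 and 0.24 at day 4 and 1.14, 1.12 and 1.17 at day 8 FPKM. Col4a3 and Col14a1 stayed at or below 0.07 and 0.15 FPKM in every sample and lost their call at an adjusted p under 0.001, under glmTreat, a test against a 2-fold difference, and in limma. Col6a3 lost its call under other normalizations and in DESeq2.

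Of 27 tested matrix proteases and inhibitors, 5 were peak genes (Mmp19, Adam12, Adamts9, Adamts12 and Adamts15) and 6 trough genes (Mmp3, Mmp9, Mmp13, the urokinase gene Plau, and the inhibitor genes Timp3 and Serpine2). The stromelysin gene Mmp3 had 17.59, 19.68 and 18.24 at day 0, 2.79, 2.73 and 2.29 at day 4 and 10.08, 11.06 and 8.57 at day 8 FPKM. Timp3, which encodes an inhibitor of metalloproteases held in the matrix, had 7.77, 8.74 and 8.6 at day 0, 0.44, 0.38 and 0.31 at day 4 and 2.05, 2.42 and 2.62 at day 8 FPKM. Adamts15 had the largest contrast of the protease peaks (2.65 ± 0.106, with 4.71 ± 0.152 from day 0 and 0.58 ± 0.0997 from day 8).

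Of 23 tested actin and contractile genes, 5 were trough genes (Acta2, Tagln, Myl9, Tpm1 and Filip1l; background 2.70%) and 0 peak genes. The list had a median difference of -0.957 from day 0 and of -0.0472 from day 8. Acta2, the smooth muscle actin gene of contractile fibroblasts, had 277.4, 342.6 and 282.6 at day 0, 57.39, 49.89 and 35.22 at day 4 and 87.6, 77.67 and 72.87 at day 8 FPKM. Myl9, a myosin light chain gene, had 19.55, 23.59 and 19.36 at day 0, 5.26, 5.34 and 3.44 at day 4 and 12.51, 11.44 and 8.64 at day 8 FPKM. On the list of YAP and TEAD genes, 1 of 19 was a peak gene, Tead4 (3.42, 3.71 and 3.43 at day 0, 10.77, 10.93 and 10 at day 4 and 2.02, 2.25 and 2.31 at day 8 FPKM), and 1 a trough gene, Ankrd1, a target of YAP (-4.54 ± 0.329 from day 0 and -0.96 ± 0.526 from day 8), whose day 4 and day 8 values met at 0.14 FPKM.

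Growth factor and receptor genes gave 8 trough genes (background 2.70%), all of them ligands, and 1 peak gene (the receptor gene Fgfr2) among 34 tested, with a median contrast of -0.0647. Igf1 had 3.64, 4.47 and 4.78 at day 0, 1.71, 1.52 and 1.77 at day 4 and 10.59, 11.39 and 9.74 at day 8 FPKM and was higher at day 8 than at day 0 (1.41 ± 0.0846, edgeR adjusted p = 3.1e-10). The hepatocyte growth factor gene Hgf ended below day 0 (-1.66 ± 0.0916 for day 8 minus day 0, edgeR adjusted p = 1.1e-10). The preadipocyte factor gene Dlk1, an inhibitor of adipogenesis and 1 of 2 trough genes among 13 fibroblast and preadipocyte markers, had 794, 827.7 and 861 at day 0, 183.1, 193.3 and 165.9 at day 4 and 417.8, 408.9 and 419.2 at day 8 FPKM. It stood at 408.9 FPKM or more at day 8, still under its day 0 level (-0.88 ± 0.0579, edgeR adjusted p = 9.6e-10). The other was the Wnt antagonist gene Sfrp2, with 43.92, 46.99 and 47.71 at day 0, 15.01, 12.88 and 10.76 at day 4 and 40.03, 38.21 and 39 at day 8 FPKM.

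In the Wnt pathway, 3 of 21 tested genes peaked (Lrp5, Sfrp5 and Lef1) and 4 had a trough (Rspo2, Fzd1, Sfrp2 and Dkk3). Rspo2 and Dkk3 lost their call at an adjusted p under 0.001, under glmTreat and in limma. Lef1, a nuclear effector and target of the pathway, had 4.24, 5.2 and 4.77 at day 0, 14.1, 15.33 and 15.94 at day 4 and 4.82, 5.14 and 4.39 at day 8 FPKM, with overlapping values at the ends. Of 38 tested genes of the TGF-beta and BMP pathway, 4 were trough genes and 1 a peak gene. The trough genes included the inhibitory Smad gene Smad7 (-2.39 ± 0.105 from day 0 and -0.56 ± 0.122 from day 8) and the target gene Tgfbi (contrast -1.78 ± 0.0494).

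The study gave special attention to TRP channels, a family of cation channels. Of 14 tested, 1 was a peak gene and 1 a trough gene. Trpv2 had 0.44, 0.34 and 0.3 at day 0, 1.33, 0.94 and 0.9 at day 4 and 0.38, 0.43 and 0.27 at day 8 FPKM. Trpm5 had 0.71, 0.53 and 0.59 at day 0, 0.09, 0.07 and 0.09 at day 4 and 0.47, 0.31 and 0.48 at day 8 FPKM. Both channels were expressed at a low level, and for both the contrast lost its call in limma on log2(FPKM + 1). Trpm4 and Trpm7 had contrasts of -0.57 ± 0.0668 and -0.14 ± 0.0483, and neither was a transient gene. Trpv4 had a contrast of 0.21 ± 0.306. By quantitative RT-PCR, the paper reports Trpv2 higher and Trpv4, Trpm4, Trpm5 and Trpm7 lower in differentiated adipocytes than in preadipocytes. In the counts here, day 8 minus day 0 was 0.11 ± 0.294 for Trpv2 and -0.34 ± 0.366 for Trpv4 (edgeR adjusted p = 0.76 and 0.42). It was -0.38 ± 0.0727 for Trpm4, -0.43 ± 0.213 for Trpm5 and -0.70 ± 0.0555 for Trpm7 (edgeR adjusted p = 0.00022, 0.084 and 1.1e-08). Agreement between the methods was not tested.

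The 15 leading trough genes, by the same measure as the peaks, included Itga11, Sorbs2, Stbd1, Timp3, Usp17le, Adm2, Ces1g, Cox6a2, Atf3, Gfra1, Car6, Cxcl5, Kif21b and Mmp3. Itga11, the gene of a collagen-binding integrin subunit, had 2.83, 2.45 and 2.53 at day 0, 0.33, 0.24 and 0.32 at day 4 and 2.29, 2.17 and 2.53 at day 8 FPKM. The starch-binding protein gene Stbd1, which links glycogen to membranes, had 5.73, 4.91 and 5.26 at day 0, 0.63, 0.72 and 0.59 at day 4 and 4.23, 3.7 and 5 at day 8 FPKM. Cox6a2, a heart and muscle form of a cytochrome c oxidase subunit, had 6.23, 6.4 and 6.9 at day 0, 0.99, 1.58 and 1.24 at day 4 and 14.99, 12.97 and 15.86 at day 8 FPKM and was higher at day 8 than at the start (1.28 ± 0.133, edgeR adjusted p = 2.8e-07). Gfra1, a co-receptor for the neurotrophic factor GDNF, had 1.33, 1.2 and 1.51 at day 0, 0.31, 0.26 and 0.31 at day 4 and 2.48, 2.45 and 2.73 at day 8 FPKM. Itga11 and Stbd1 returned to within less than 2-fold of day 0. Usp17le had 3.27, 3.91 and 2.41 at day 0, 0, 0.06 and 0 at day 4 and 0.09, 0.11 and 0.16 at day 8 FPKM, and 29.8% of its stretches are shared with other genes, so its level is uncertain.

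**Figure D5:**
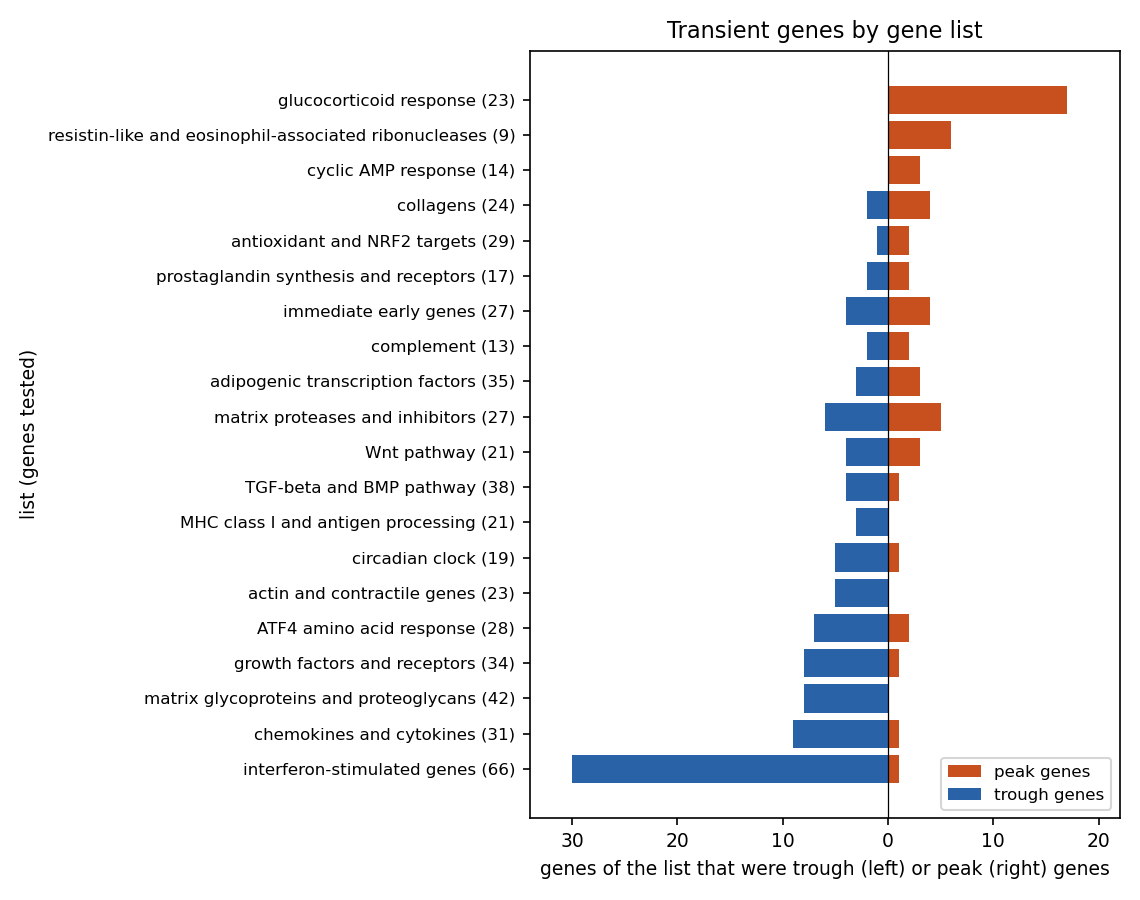
For the 20 gene lists with at least 3 transient genes, bars give the number of peak genes (orange, to the right) and trough genes (blue, to the left) on the x axis, with the genes tested in parentheses. The glucocorticoid response list reached 17 peak genes and the interferon-stimulated list 30 trough genes. The bars are counts, so lists of different size should be read against the numbers in parentheses.

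None of 42 tested respiratory chain genes, 42 DNA replication genes, 50 ribosome biogenesis genes, 25 lysosome genes and 15 cyclins and cell cycle inhibitors was a transient gene. The background was 2.58% for peak and 2.70% for trough genes, and whether these lists differ from it was not tested. In DNA replication, all day 4 values lay below all others in 13 of 42 genes, with a median contrast of -0.293, and in mitosis in 13 of 36 genes, with 1 trough gene, the cytokinesis gene Anln (-1.75 ± 0.108 from day 0 and -0.31 ± 0.115 from day 8). In ribosome biogenesis 8 of 50 genes lay above all others, with a median contrast of 0.03. Over all tested genes these shares were 12.0% below and 13.2% above. Apart from Anln, these separated genes had contrasts of less than 2-fold. Of 33 tested genes of glycolysis and the hypoxia response, 1 was a trough gene, Slc2a1, while 25 were higher at day 8 than at day 0 (background 10.3%).

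Of 19 tested genes of triglyceride synthesis and the lipid droplet, 16 were higher at day 8 than at day 0 (background 10.3%), and 2 were peak genes, Agpat2 (3.58 ± 0.0854 from day 0 and 0.59 ± 0.0731 from day 8), an acyltransferase gene, and Fitm2 (2.60 ± 0.0736 from day 0 and 0.25 ± 0.0631 from day 8), which encodes a protein of droplet formation. Of 12 lipolysis genes, 11 were higher at day 8 than at day 0 and 1 was a peak gene, Abhd5 (1.90 ± 0.0597 from day 0 and 0.23 ± 0.0559 from day 8), the activator of adipose triglyceride lipase. Of 25 genes of cholesterol synthesis and uptake, 3 were higher at day 8 than at day 0 and 1 peaked, the lanosterol demethylase gene Cyp51, with 24.56, 31.06 and 25.87 at day 0, 48.28, 53.45 and 60.08 at day 4 and 20.46, 21.36 and 19.88 at day 8 FPKM. Of 29 antioxidant and NRF2 target genes, 2 peaked, the catalase gene Cat (2.10 ± 0.0537 from day 0 and 0.33 ± 0.0506 from day 8) and Gsta3 (contrast 2.38 ± 0.265), and 1 had a trough, the cystine transporter gene Slc7a11 (-2.19 ± 0.132 from day 0 and -0.54 ± 0.151 from day 8).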

How the data were processed

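RNA of 3T3-L1 cells at day 0, 4 and 8 of differentiation was sequenced in 3 samples per day, with the day taken from the sample titles. After quality filtering the authors aligned the reads with HISAT/Bowtie2 and quantified genes with RSEM (the submitters' processing notes name CASAVA 1.4 and Bowtie2). The genome build is not given in the sources used here. The expected counts that the authors deposited come unnormalized from RSEM, and 29.8% of those above 0 are not whole. FPKM, also deposited, relates them to gene length and depth. Of 19094 listed genes, 19040 matched the reference table by ID, and 26 symbols damaged by date conversion were restored.

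Expected counts were rounded, filtered with filterByExpr and TMM-scaled, and 13154 genes were fitted with edgeR 4.0.16 (R 4.3.3, functions glmQLFit and glmQLFTest), using 1 coefficient per day, all 9 samples and no covariate. Thresholds were an adjusted p (Benjamini-Hochberg, over all tested genes) under 0.05 and a log2 difference above 1 or below -1. The common biological coefficient of variation was 0.0538. Replicate pairs differed by more than counting noise (chi-square per gene of 2.40 to 10.7 in 9 pairs), so none were merged. The exact test in the paper's statistics section takes 2 groups and could not give this contrast. Its sequencing methods name NOIseq and PossionDis instead. The transient genes, the 40 gene lists and the tests were chosen with earlier results of these data known. Named genes are the 15 peak and 15 trough genes with the largest smaller-of-both-ends difference and an average log2 CPM of at least 1, list members chosen for their role, TRP channels and the genes nearest the limits. Transcripts in GENCODE vM21, found for 197 of 202 named genes, were cut into 50-base stretches, and genes sharing over 20% of them with others counted as uncertain. On the GRCm38.p6 map, 37 named genes overlap another listed gene. Promoter sequences are from RefSeq (GRCm38.p6), and 10416 tested genes matched. Alternatives were other normalizations and filters, glmTreat, DESeq2 1.42.0, limma 3.58.1, a replicate block and leaving out each sample. The steps were tested on simulated counts in which some genes changed at day 4 only. No simulated gene differed between day 0 and day 8, so the test did not cover such genes. Some genes that meet the naming rule are not reported here.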

Additional observations from a re-analysis of the deposited data

How the results depend on the processing

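Of 3957 values of named genes under the alternatives, 3798 kept their direction and their side of the threshold, 136 lost the call, 23 gained it and 0 turned. Counts moved by over 1.5 times under a filter of at least 10 counts in every sample, which tests fewer genes, with 284 genes higher and 341 lower at day 4, 203 peak genes (75 higher, 119 not called and 9 lower at day 8 than at day 0) and 93 and 118 genes over 2-fold from each end. They also moved under glmTreat, a stricter test by construction, with 365 higher, 235 lower, 223 peak genes (125 not called and 2 lower at day 8), 212 trough genes (6 higher, 110 not called and 96 lower) and 95 and 59 genes over 2-fold from each end. In limma on log2(FPKM + 1), whose pseudocount shrinks low genes, there were 265 higher, 205 lower, 187 peak genes (68 higher, 113 not called, 6 lower), 169 trough genes (6 higher, 75 not called, 88 lower) and 99 and 54 genes over 2-fold from each end. With log2(FPKM + 0.1), 119 genes were over 2-fold lower than each end, and at an adjusted p under 0.001 the peak genes lower at day 8 numbered 9. Under each of these 5 settings the ATF4 list had 1 peak gene. In limma on log2(FPKM + 1) Hpgd, Trpv2, Trpm5, Sorbs2, Il33, Ptgir, Per3, Gata3, Plau and Slc7a11, among others, lost their call.

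Leaving out single samples gave 724 to 845 transient genes, of which 649 to 685 were among the 695, and fewer samples make separation easier by construction. The circadian list then had between 1 and 2 peak genes, 2 without day 4 replicate 1. Whether replicate numbers in the titles pair the samples was not settled. Same-numbered samples had correlations of deviations from the mean of their day between -0.0436 and 0.134 in 9 pairs (mean 0.0411). The mean for different numbers (-0.0206) is no independent reference, since deviations within a day sum to 0. Of 9 samples, 3 correlated best with their own number on both other days. With the replicate block there were 341 peak and 354 trough genes, 694 of 695 genes were shared, and Slc2a1 alone among the named genes lost its call. Depth limits mainly low genes, for which 3 counts were the floor, and 3 samples per day bound the precision of every SE.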

Other observations

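Some transient genes of the same direction were neighbours on the chromosome, a count made after seeing the data. Of 337 peak genes on the GRCm38.p6 map, 8.90% had a peak gene as the next tested gene, against 2.57% of all mapped genes that were peak genes. Of 355 trough genes, 8.73% had a trough gene next, against 2.70%. These were 30 and 31 neighbouring pairs among 13104, and many pairs were paralogs or overlapping genes, for which shared reads could not be told apart from shared expression. The genes of the runs below were chosen after their values were seen.

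The orosomucoid genes Orm1, Orm3 and Orm2, which encode acute phase proteins of plasma, lie side by side and all peaked. Orm1 rose from 0.397 ± 0.221 to 56.4 ± 7.68 FPKM between day 0 and day 4 and stood at 40.0 ± 1.93 on day 8 (mean ± SD of 3 samples, also below), so it kept most of its level, whereas Orm2 went from 16.4 ± 1.4 at day 4 to 3.63 ± 1.04 at day 8. Of their 50-base stretches, 20.4% (Orm1) and 22.7% (Orm2) are shared with other genes. Aldh1a7, next to Aldh1a1, had 1.78 ± 0.336 FPKM at day 0, 100.5 ± 4.99 at day 4 and 59.0 ± 0.574 at day 8. In the HoxD cluster, which patterns the body axis, Hoxd3, Hoxd4 and the noncoding RNA gene Haglr peaked together at low levels. Hoxd3 had 2.77 ± 0.625, 7.15 ± 0.879 and 3.54 ± 0.259 FPKM and Hoxd4 2.61 ± 0.927, 6.69 ± 0.634 and 3.19 ± 0.535 on the 3 days, with 60.2% and 46.8% of their stretches shared, in part with each other. Among trough genes, Mx2 beside Mx1 had 13.5 ± 3.38, 0.683 ± 0.244 and 1.22 ± 0.0681 FPKM, and Ifit2 beside Ifit3 11.1 ± 0.821, 2.25 ± 0.352 and 3.37 ± 0.175. Ppbp, between Cxcl5 and Cxcl1, followed them at or below 1.07 FPKM.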
